A study of Mus musculus with 2 samples.

Results

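Interferons are read by a short chain of proteins, and 9 genes of that chain are described here: the receptor subunits Ifnar1, Ifnar2, Ifngr1 and Ifngr2, the transcription factors Stat2, Irf1, Irf7 and Irf9, and the inhibitor Socs1. They were taken by symbol from a list of receptors and transcription factors that carry type I and type II interferon signals, and they are 9 of the 31053 genes in the deposited matrices. Single cells of mouse bone marrow were sequenced in droplets, an assay that counts the 3′ ends of polyadenylated transcripts as unique molecular identifiers (UMIs). One library carried the genotype label Apoe(-/-), Itgb3(-/-), and the other library the label Apoe(-/-), Itgb3(+/+). Both were C57BL/6 bone marrow labelled with an age of 6 months and with atherosclerosis, so that both lacked Apoe by label, whose loss raises plasma cholesterol in mice, and they differed by label in Itgb3, the gene for integrin β3. The first is called the null-labelled and the second the control-labelled library. Each genotype had 1 library, and no source used here states how many animals went into a library, so no test between genotypes was possible and every interval below covers counting error only.

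Type I interferons bind a receptor made of the Ifnar1 and Ifnar2 subunits, and type II interferon, the product of Ifng, binds one made of Ifngr1 and Ifngr2. Receptor-bound Janus kinases then phosphorylate STAT proteins. STAT2 acts with IRF9 in a complex that binds interferon-stimulated response elements (ISRE), whereas the type II signal acts through gamma-activated sites (GAS). IRF1 and IRF7 are themselves products of interferon-responsive genes and amplify the response, and SOCS1 blocks the kinases and so limits it.

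All 9 are protein-coding genes on the mm10 build (GENCODE vM21, positions counted from 1). The receptor genes Ifnar2 (chr16:91372783-91405589), Ifnar1 (chr16:91485238-91507441) and Ifngr2 (chr16:91547072-91565623) lie close together on the plus strand, and Socs1 (chr16:10782240-10785536) lies on the minus strand of the same chromosome. Chromosome 10 carries Ifngr1 (chr10:19591949-19610229) and Stat2 (chr10:128270559-128292849), both on the plus strand. Irf1 is at chr11:53770014-53778374 and Irf9 at chr14:55603571-55610030, both on the plus strand, and Irf7 is at chr7:141262706-141266481 on the minus strand.

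The 250 bases before the transcription start are printed for the 5 genes that were 2-fold or more higher in the null-labelled library over all cells, because these promoters show whether the letters of an interferon element stand next to the start. Sequences are from RefSeq on GRCm38.p6, written 5′ to 3′ on the strand of the gene, at chr16:91372533-91372782 (plus) for Ifnar2, chr10:128270248-128270497 (plus) for Stat2, chr11:53769764-53770013 (plus) for the first of 2 starts of Irf1, chr7:141266425-141266674 (minus) for Irf7 and chr16:10785537-10785786 (minus) for Socs1. Capitals mark matches, on either strand, to the ISRE core GAAANNGAAA or the GAS pattern TTCNNNGAA.
Ifnar2: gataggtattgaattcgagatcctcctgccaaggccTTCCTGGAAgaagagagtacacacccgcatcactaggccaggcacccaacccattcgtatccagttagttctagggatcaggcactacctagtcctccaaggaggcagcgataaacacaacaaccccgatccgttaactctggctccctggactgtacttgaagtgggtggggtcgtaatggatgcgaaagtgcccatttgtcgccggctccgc
Stat2: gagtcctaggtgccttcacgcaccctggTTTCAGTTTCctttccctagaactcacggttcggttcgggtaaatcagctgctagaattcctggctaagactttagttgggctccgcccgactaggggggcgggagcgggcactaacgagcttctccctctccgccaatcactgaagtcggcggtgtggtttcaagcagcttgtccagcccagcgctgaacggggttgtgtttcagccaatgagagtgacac
Irf1: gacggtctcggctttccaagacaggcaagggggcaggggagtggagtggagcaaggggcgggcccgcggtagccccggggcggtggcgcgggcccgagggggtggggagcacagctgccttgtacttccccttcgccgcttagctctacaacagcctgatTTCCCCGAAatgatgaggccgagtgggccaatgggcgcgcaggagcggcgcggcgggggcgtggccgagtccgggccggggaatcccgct
Irf7: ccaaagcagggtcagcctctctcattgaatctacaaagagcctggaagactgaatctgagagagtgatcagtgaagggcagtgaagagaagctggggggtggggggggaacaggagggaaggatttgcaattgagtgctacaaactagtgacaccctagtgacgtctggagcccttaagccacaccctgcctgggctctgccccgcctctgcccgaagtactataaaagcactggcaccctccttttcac
Socs1: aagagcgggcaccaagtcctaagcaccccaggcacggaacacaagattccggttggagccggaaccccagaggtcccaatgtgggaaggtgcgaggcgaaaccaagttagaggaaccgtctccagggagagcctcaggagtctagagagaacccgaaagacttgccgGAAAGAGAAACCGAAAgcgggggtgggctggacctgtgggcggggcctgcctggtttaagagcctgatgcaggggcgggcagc
In Socs1 a pair of overlapping ISRE cores, GAAAGAGAAA from base -83 and GAAACCGAAA from base -77 relative to the start, forms 1 run. Stat2 holds 1 such core on the opposite strand, TTTCAGTTTC from base -222. The capitals in Ifnar2 (TTCCTGGAA from base -214) and Irf1 (TTCCCCGAA from base -90) are GAS patterns, and Ifnar1 has a GAS pattern, TTCACGGAA, that begins at base -5 and runs across its start. Over the 11 windows of 300 bases of the 9 genes (250 before and 50 after each start), the ISRE core was found for 2 genes and the GAS pattern for 3 genes. These letters were not in the windows of Ifngr1, Ifngr2, Irf7 and Irf9. Among 32851 RefSeq promoter windows of the same length, 3.44% held the ISRE core and 8.30% the GAS pattern, and a match of letters does not show binding.

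The cells that passed the filters numbered 2903 with 33499181 UMIs in the null-labelled library, against 8595 with 59016542 UMIs in the control-labelled one, at a median of 9311 against 4808 UMIs per cell. Itgb3 itself was counted at 249 UMIs (7.43 CPM, counts per 1000000 UMIs) against 1391 UMIs (23.6 CPM), and Apoe at 62.5 against 99.5 CPM. Counting 3′ ends does not show which part of a gene was deleted. Cells were clustered without the 9 genes, the rest of the pathway and interferon response genes, and were named from marker genes. In 146 of 154 sub-clusters at least 90% of the cells came from 1 library, so a sub-cluster may stand for a library and not for a cell type. The libraries shared 11 deposited barcodes. In all, 7 classes had 100 or more cells in each library: erythroid-like (925 against 2010 cells), immature neutrophil-like (395 against 1368), granulocyte-monocyte progenitor-like or GMP-like (106 against 303), monocyte-like (150 against 553), B precursor-like (278 against 1058), mature B-like (413 against 830) and T-like (134 against 203). Except for cluster 0 of the erythroid-like and cluster 18 of the T-like cells, the clusters that held most of a class differed between the libraries: clusters 5 and 4 against 24, 11 and 1 for erythroid-like, 6 and 3 against 30, 22 and 27 for immature neutrophil-like, 15 and 6 against 21 and 13 for GMP-like, 15 against 33 and 28 for monocyte-like, 2 against 31 and 19 for B precursor-like, 7 and 2 against 12 and 32 for mature B-like, and 8 against 18 for T-like cells. Acute-phase, chemokine and antigen-presentation genes such as Saa3, Ccl2, Ccl5 and H2-Aa led the null-labelled monocyte-like sub-clusters, and such genes also led null-labelled GMP-like sub-clusters (Cxcl9, Cxcl10, Ccl2). Although left out of the clustering, interferon-response genes such as Isg15, Rsad2 and Usp18 were among the leading genes of null-labelled erythroid-like sub-clusters. The part of these differences in the results was not tested.

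Over all cells, 5 of the 9 genes were 2-fold or more higher in the null-labelled library (Irf7, Socs1, Stat2, Irf1 and Ifnar2) and 0 were 2-fold or more lower. Among the 12997 genes with at least 30 UMIs over both libraries, 8.49% were 2-fold or more higher and 18.2% 2-fold or more lower. The median log2 ratio was 1.54 over the 9 genes and -0.24 over all genes. Irf7 came to 362 CPM (12116 UMIs) against 22.9 CPM (1352 UMIs), a ratio of 15.8 (95% interval 14.9 to 16.7). Socs1 stood at 96.2 CPM (3221 UMIs) against 7.79 CPM (460 UMIs), a ratio of 12.3 (11.2 to 13.6). The next 3 genes followed in the order Stat2, Irf1 and Ifnar2. For Stat2 the levels were 127 CPM (4267 UMIs) against 12.3 CPM (727 UMIs), 10.3-fold (9.56 to 11.2). Irf1 was at 156 CPM (5237 UMIs) against 19.2 CPM (1132 UMIs), 8.15-fold (7.64 to 8.70). Ifnar2 was at 131 CPM (4393 UMIs) against 45.1 CPM (2660 UMIs), 2.91-fold (2.77 to 3.05). The other 4 genes lay within 2-fold. A summed level cannot tell more cells with a transcript from more transcripts per cell, so shares of cells are given beside it where they add to it. Irf9 was at 62.2 CPM (2085 UMIs) against 34.3 CPM (2027 UMIs), a ratio of 1.81 (1.70 to 1.93), and Ifnar1 at 37.2 CPM (1245 UMIs) against 24.2 CPM (1426 UMIs), a ratio of 1.54 (1.42 to 1.66). Of the type II receptor subunits, Ifngr1 had 102 CPM (3407 UMIs) against 88.9 CPM (5248 UMIs), a ratio of 1.14 (1.10 to 1.19), which turned to a log2 ratio of -0.25 under a limit of 5% mitochondrial UMIs. Ifngr2 had 34.6 CPM (1160 UMIs) against 41.8 CPM (2464 UMIs), a ratio of 0.829 (0.773 to 0.890). Only the control-labelled library held cells named mature neutrophil-like: 1316 cells at a median of 2436 UMIs, against 0 null-labelled cells. That class had the highest control-labelled Ifngr2 level among classes with at least 20 cells, 141 CPM (499 UMIs), and its interval overlapped the next. A further 229 null-labelled and 252 control-labelled neutrophil-like cells were left without a stage. Their leading genes held more markers of the other neutrophil stage than of the best-scoring one. Ifngr2 was at 86.1 against 92.7 CPM in them. Over all neutrophil-like cells, staged or not (624 against 2936), it was at 57.1 against 64.8 CPM, a ratio of 0.881 (0.787 to 0.985). The part of the naming and of the missing class in the Ifngr2 ratios over all cells was not tested. Ifngr2 was lower still once cells were weighted equally. Its log2 ratio was -0.27 from the sums and -0.72 as a mean over cells. It was -1.33 when each cell was thinned to 1000 UMIs in 1 random draw, in which 2.29% of null-labelled against 5.75% of control-labelled cells kept an Ifngr2 UMI (23.9% and 21.2% unthinned, 69 and 193 cells left out). The expectation over all such draws, calculated exactly and added after seeing the data, was a log2 ratio of -0.82 with 3.25% against 5.69% of cells, so a thinned value of a gene with few UMIs also carries the chance of its draw.

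**Figure D1:**
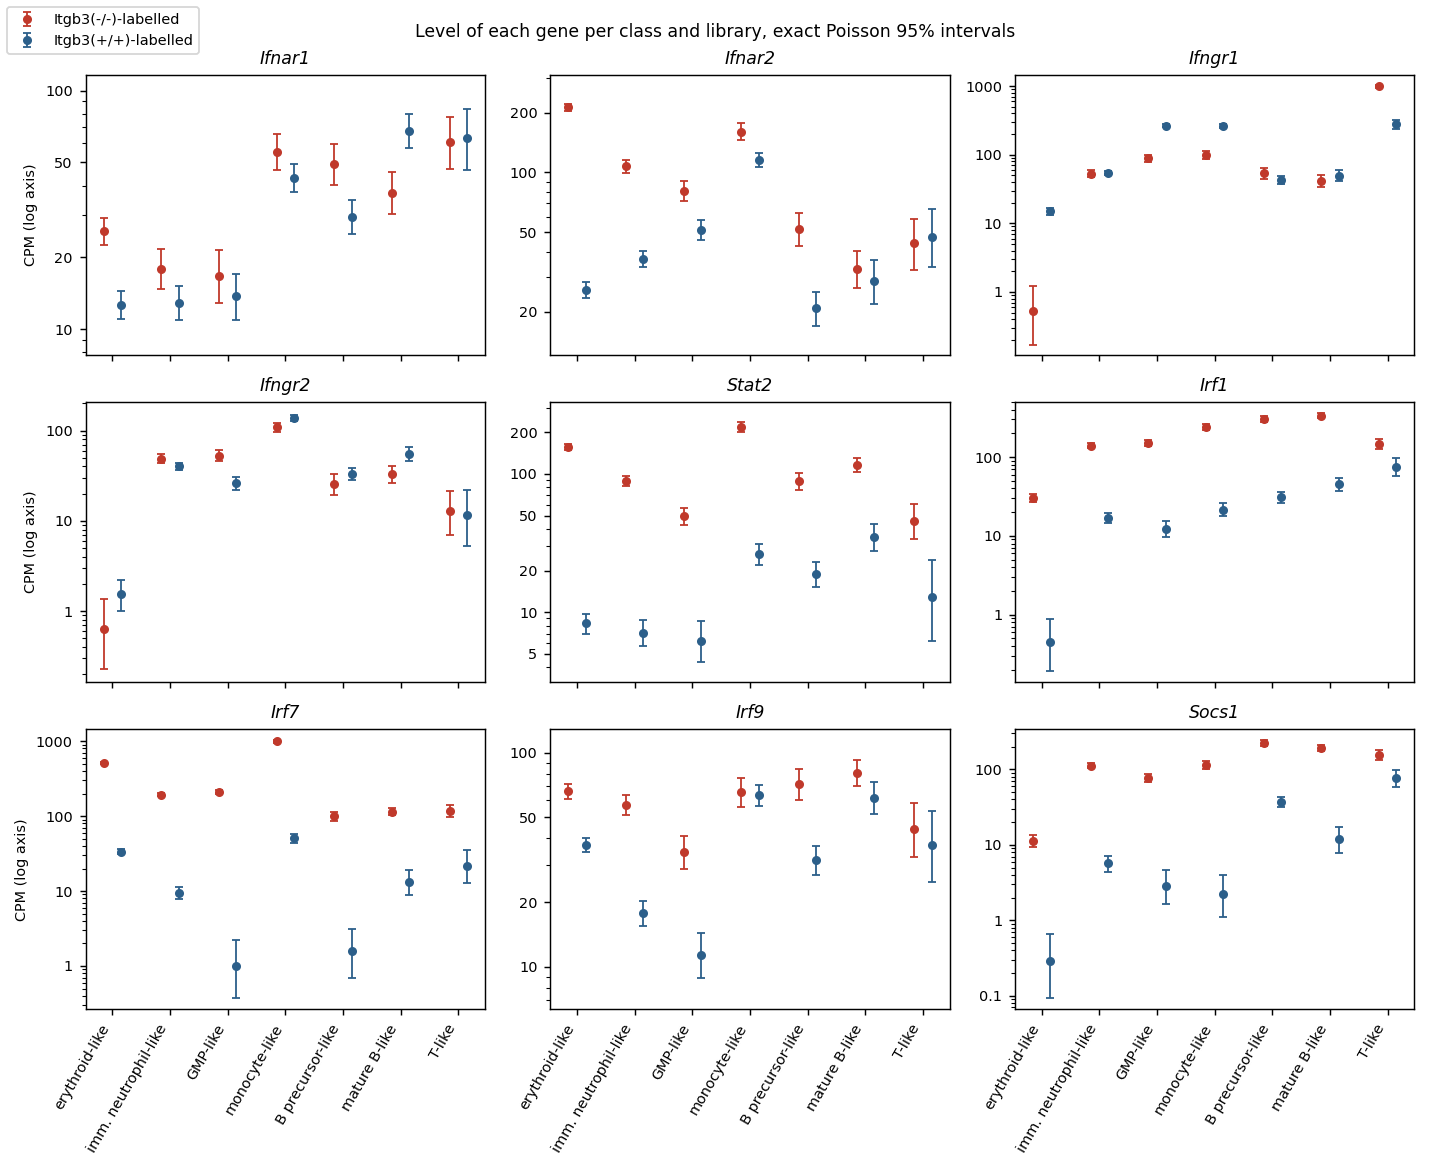
Level of the 9 genes in CPM (log axes that differ between panels) in the 7 compared classes, with the null-labelled library (red) left of the control-labelled library (blue) and bars for exact Poisson 95% intervals. Stat2, Irf7 and Socs1 are higher in red in every class, whereas Ifngr1 is higher in red in T-like cells (994 against 277 CPM) and lower in GMP-like cells (88.5 against 266 CPM).

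The scale of a class matters for these ratios. Hemoglobin transcripts made up 63.6% of the UMIs of null-labelled against 35.4% of control-labelled erythroid-like cells, and the median log2 ratio of all genes there was -1.71. Scaling by TMM factors, which centre the bulk of genes, set the zero of the log2 ratio at -1.5 in erythroid-like cells, at -0.19 over all cells and between -0.15 and -0.02 in the other 6 classes, so each ratio became higher by that amount. Under TMM Ifngr2 in erythroid-like cells turned from a log2 ratio of -1.29 to 0.21, and Irf9 over all cells passed 2-fold at 1.05.

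By class, 6 of the 9 genes were 2-fold or more higher in null-labelled erythroid-like cells and 2 were 2-fold or more lower, against 4.11% and 70.5% of all genes. In immature neutrophil-like cells 6 were higher and 0 lower, against 8.25% and 16.8% of all genes, and in GMP-like cells 6 were higher and 1 lower, against 10.6% and 11.7%. Monocyte-like cells had 4 higher and 1 lower, against 12% and 21.5% of all genes. The B lineage had 6 higher and 0 lower in B precursor-like cells (7.02% and 13.7% of all genes) and 4 higher and 0 lower in mature B-like cells (10.2% and 16.6%). Of the 8 genes with at least 30 UMIs in T-like cells, 4 were higher and 0 lower, against 9.58% and 11.2% of all genes, and Ifngr2 did not reach 30 UMIs there. The median log2 ratio of the measured genes ran from 0.39 in mature B-like cells to 3.04 in erythroid-like cells, and that of all genes from -1.71 to -0.03.

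**Figure D2:**
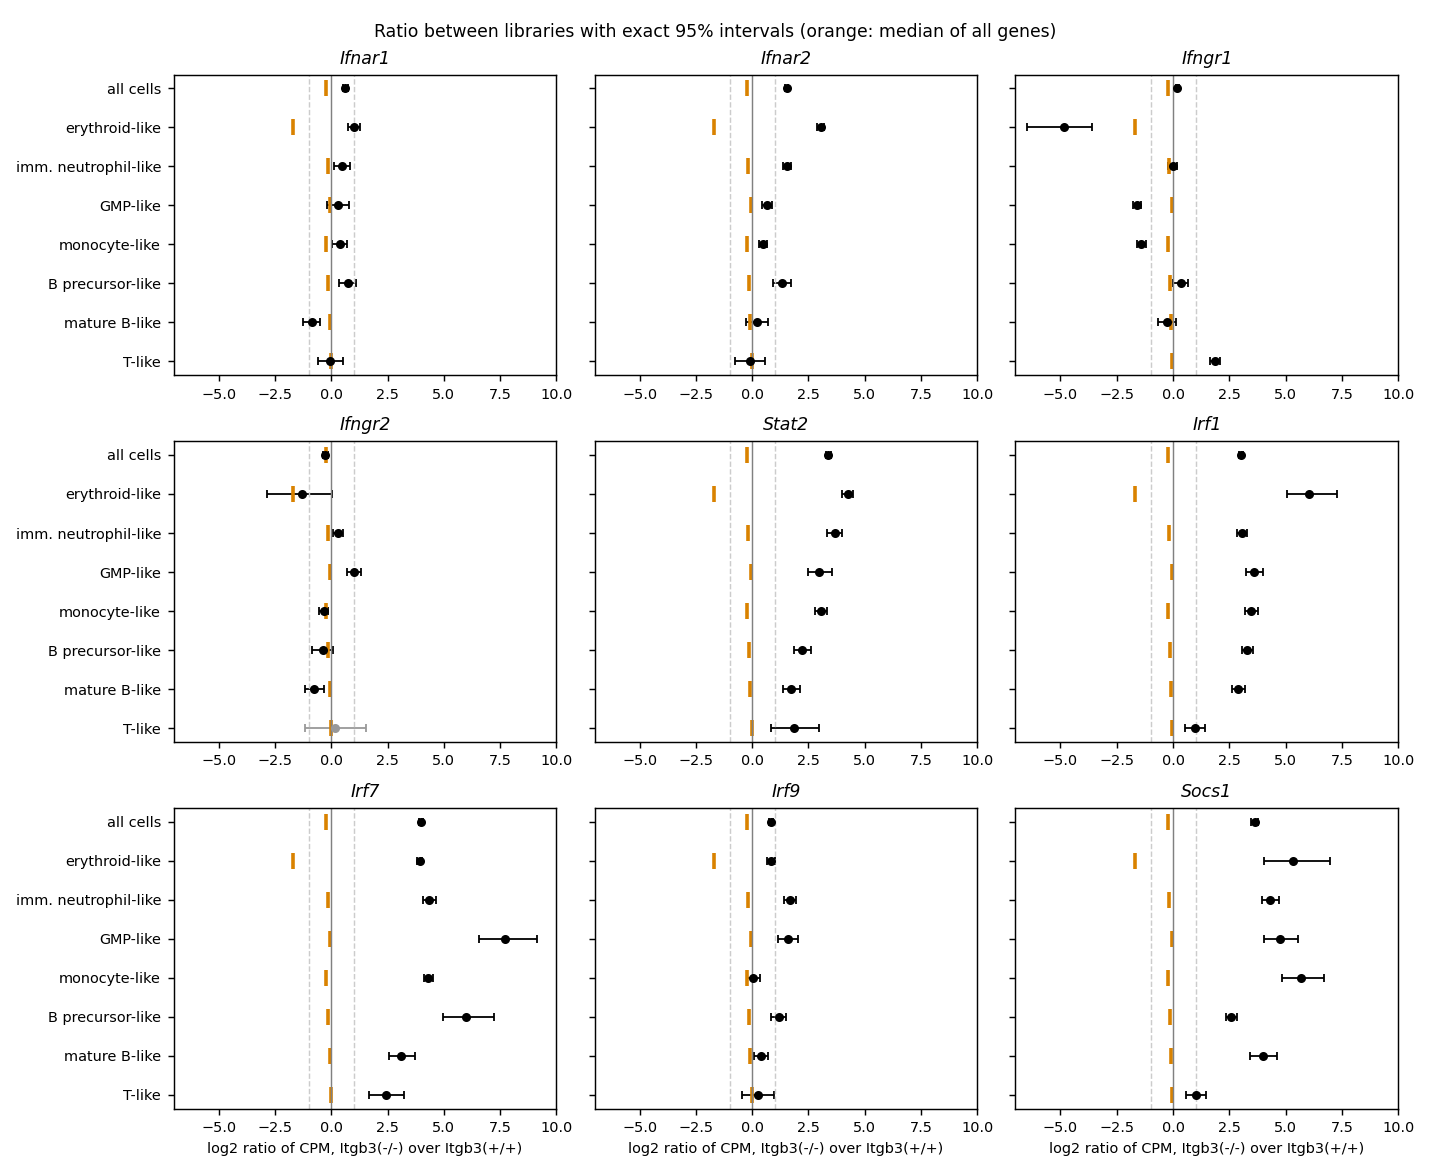
Log2 ratio of CPM, null-labelled over control-labelled, for each gene over all cells and in each class, with exact 95% intervals (black), the median ratio of all genes in that class (orange ticks) and dashed lines at 2-fold. Ifngr2 in T-like cells is grey because it had fewer than 30 UMIs. Irf7 in GMP-like cells (ratio 208) and Ifngr1 in erythroid-like cells (ratio 0.0351) stand at the ends of the range.

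The ligands of these receptors were scarce in both libraries. Of 21 listed interferon genes, 19 had 0 UMIs in each library, a count that allows up to 0.0896 CPM for null-labelled cells and up to 0.0508 CPM for control-labelled cells. These 19 were not the same genes in both libraries. Ifnb1, a type I interferon, had 15 UMIs, all in 1 null-labelled monocyte-like cell, and 0 UMIs in the control-labelled library. Ifnab was counted in the control-labelled library only, as 1 UMI in 1 B precursor-like cell. Ifng, the type II interferon, passed the minimum: 32 cells held its 74 UMIs, against 38 cells with 43 UMIs, 3.03-fold by CPM (2.05 to 4.52). T-like cells held 59 of the null-labelled Ifng UMIs in 20 cells, against 15 UMIs in 11 cells, and NK-like cells had 14 UMIs against 18 UMIs. A single null-labelled cell carried up to 20 Ifng UMIs, against at most 3 in a control-labelled cell.

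Ifnar2, the subunit that binds type I interferon with high affinity, was 2-fold or more higher in null-labelled cells of 3 of the 7 classes. Erythroid-like cells had 212 CPM (2029 UMIs) against 25.8 CPM (454 UMIs), 8.24-fold (7.44 to 9.15). Immature neutrophil-like cells had 107 against 36.6 CPM, 2.93-fold (2.60 to 3.32), and B precursor-like cells 52.1 against 20.8 CPM, 2.51-fold (1.90 to 3.31). The B precursor-like log2 ratio of Ifnar2, 1.33 from the sums, was 0.92 in the thinned draw and 1.17 in its expectation. The order of the classes differed as a result: erythroid-like cells had rank 2 of 14 classes in the null-labelled library and rank 13 in the control-labelled one. Both intervals overlapped that of the next class. Here and below, the classes ranked are those with at least 20 cells. Plasma cell-like cells are ranked only in the null-labelled and mature neutrophil-like cells only in the control-labelled library. In GMP-like cells the levels were 81.0 against 51.5 CPM (1.57-fold, 1.34 to 1.85), and in monocyte-like cells 161 against 115 CPM (1.39-fold, 1.22 to 1.59). Levels in mature B-like and T-like cells overlapped within counting error. Mature B-like cells had 32.7 against 28.4 CPM, with a ratio of 1.15 (0.823 to 1.62), and T-like cells 44.1 against 47.6 CPM, with a ratio of 0.926 (0.591 to 1.46).

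The erythroid-like difference of Ifnar2 was present at each hemoglobin level. Cells with under 20% hemoglobin UMIs (60 against 416 cells) had 147 against 24.8 CPM, a ratio of 5.94 (4.76 to 7.39). Cells with 20 to 60% (264 against 672) had 238 against 32.1 CPM, a ratio of 7.41 (6.19 to 8.91), and cells with over 60% (601 against 922) had 212 against 21.5 CPM, a ratio of 9.87 (8.09 to 12.1). Within cluster 0, the erythroid-like cluster that both libraries filled, Ifnar2 was at 59.7 CPM (169 UMIs) against 4.60 CPM (10 UMIs), 13-fold (6.88 to 27.5). Irf7 was also higher in cluster 0, at 360 against 41.4 CPM, 8.71-fold (7.01 to 10.9). The other genes had too few UMIs there to pass the minimum. Stat2 had 7.77 CPM (22 UMIs) against 0 UMIs, a ratio of at least 4.20. Irf9 had 10 against 5 UMIs, Irf1 5 against 1 and Socs1 1 against 0. The size of their class ratios could thus not be checked in this shared cluster. After thinning every cell to 1000 UMIs, 18.8% of null-labelled against 3.22% of control-labelled erythroid-like cells kept an Ifnar2 UMI, with 10 and 20 shallower cells left out. Without thinning the shares were 72.3% and 17.9%.

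Ifnar1, the partner subunit, followed another pattern. Its level was 25.7 CPM (246 UMIs) against 12.7 CPM (223 UMIs) in erythroid-like cells, a ratio of 2.03 (1.69 to 2.45). Mature B-like cells went the other way, with 37.3 CPM (98 UMIs) against 68.0 CPM (153 UMIs), a ratio of 0.549 (0.421 to 0.712). From the sums, its ratio in the other 5 classes lay between 0.962 in T-like and 1.66 in B precursor-like cells. In immature neutrophil-like cells, where the sums gave a log2 ratio of 0.47, the mean over cells gave 0 and the thinned draw -1.24, with 1.02% against 2.35% of cells (22.8% and 10.6% unthinned, 4 and 6 cells left out). The expectation of thinning there was 0.0084. The 2-fold difference in erythroid-like cells was at the threshold, with log2 ratios from 0.81 to 0.99 in 5 alternatives of filtering and depth. In erythroid-like cells with under 20% hemoglobin UMIs, 6 against 84 UMIs gave a ratio below 1 whose interval crossed 1, 0.578 (0.206 to 1.31). It was 1.56 (1.08 to 2.24) at 20 to 60% and 2.10 (1.59 to 2.80) at over 60% hemoglobin.

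Among the smaller classes, plasmacytoid dendritic cell-like cells, a cell type known for making type I interferon, had the first rank of the 14 classes with at least 20 cells for Ifnar1, Ifnar2 and Stat2 in both libraries. They also ranked first in both for Irf1 and Irf9, with intervals that overlapped the next class. For Irf7 they had rank 3 in the null-labelled and 1 in the control-labelled library, and for Socs1 rank 11 and 10. They numbered 22 against 61 cells, were singled out after their values were seen, and their 22 null-labelled cells form 1 sub-cluster in which Ifnar1 is among the 10 leading genes. Ifnar1 was at 999.9 CPM (234 UMIs in 21 of 22 cells) against 204 CPM (65 UMIs in 43 of 61 cells), and Ifnar2 at 667 against 251 CPM. In the control-labelled library the next class for Ifnar1, mature B-like cells, was at 68.0 CPM, and the intervals did not overlap. Stat2 in these cells was at 876 against 107 CPM and Irf7 at 863 against 144 CPM. Of the type II receptor subunits, Ifngr1 was at 34.2 CPM (8 UMIs) against 31.4 CPM (10 UMIs), rank 12 of the 14 classes in both libraries. Ifngr2 was at 64.1 CPM (15 UMIs) against 31.4 CPM (10 UMIs), rank 4 in the null-labelled and 9 in the control-labelled library. Each of these intervals overlapped that of the next class.

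**Figure D3:**
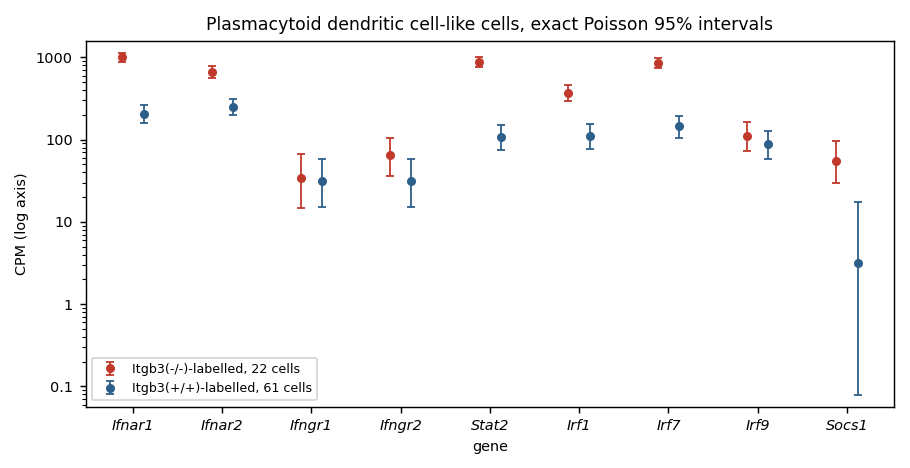
Level of the 9 genes in CPM (log axis) in plasmacytoid dendritic cell-like cells, null-labelled (red, 22 cells) left of control-labelled (blue, 61 cells), with exact Poisson 95% intervals. Intervals are apart for Ifnar1, Ifnar2, Stat2, Irf1, Irf7 and Socs1, and they overlap for Ifngr1, Ifngr2 and Irf9.

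Ifngr1, the subunit that binds interferon gamma, differed in both directions between classes. T-like cells had 994 CPM (1082 UMIs) against 277 CPM (215 UMIs), 3.59-fold (3.1 to 4.18). GMP-like cells had 88.5 CPM (332 UMIs) against 266 CPM (1584 UMIs), a ratio of 0.333 (0.295 to 0.375), and monocyte-like cells 99.0 CPM (241 UMIs) against 262 CPM (1313 UMIs), a ratio of 0.377 (0.327 to 0.433). T-like, GMP-like and monocyte-like cells were thus at overlapping levels in the control-labelled library, between 262 and 277 CPM, whereas in the null-labelled one T-like cells stood apart from GMP-like and monocyte-like cells, whose intervals overlapped. Immature neutrophil-like cells were even at 53.1 against 54.0 CPM (ratio 0.984, 0.858 to 1.13), as were B precursor-like cells at 54.0 against 42.7 CPM and mature B-like cells at 41.5 against 49.8 CPM, whose ratios of 1.26 (0.997 to 1.59) and 0.834 (0.634 to 1.09) had intervals across 1.

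The T-like difference in Ifngr1 was measured in several ways. Cluster 18 held 28 against 203 T-like cells, but its 28 null-labelled cells lay in 1 sub-cluster with 3 control-labelled ones, and the other 3 sub-clusters (67, 89 and 44 control-labelled cells) held 0 null-labelled cells. Within this cluster Ifngr1 was at 906 CPM (191 UMIs) against 277 CPM (215 UMIs), 3.28-fold (2.68 to 4.0). T-like cells with a Cd8a or Cd8b1 UMI (45 against 95) had 806 against 166 CPM, 4.87-fold (3.74 to 6.40), and those without (89 against 108) had 1097 against 409 CPM, 2.68-fold (2.24 to 3.22). Thinned to 1000 UMIs, 61.9% of null-labelled and 20.4% of control-labelled T-like cells held an Ifngr1 UMI (98.5% and 54.2% unthinned), with 0 and 2 cells left out. NK-like cells, at 40 against 76 cells, were high in both libraries with 990 CPM (386 UMIs) against 464 CPM (151 UMIs). The 8 NK markers summed to 954 against 756 CPM and the 9 T markers to 2766 against 4823 CPM in T-like cells, with the NK marker Klra8 at 0 in the null-labelled ones, and hemoglobin took 0.129% against 5.73% of their UMIs. The part of these in the Ifngr1 level was not tested.

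In GMP-like and monocyte-like cells the marker sums also differed. The 7 GMP markers summed to 13728 against 33880 CPM in GMP-like cells, where the 9 monocyte markers summed to 2328 against 1317 CPM and the 8 immature neutrophil markers to 11902 against 6246 CPM, and every marker of these 3 lists was detected in both libraries. The 9 monocyte markers summed to 3844 against 8022 CPM in monocyte-like cells, again with all detected. In mature B-like cells their own 8 markers, all detected, summed to 1021 against 5255 CPM. Ifngr1 ranged from 73.5 to 94.1 CPM over 3 null-labelled GMP-like sub-clusters of at least 30 cells, and from 160 to 382 CPM over 6 control-labelled ones, so that these did not overlap. Over monocyte-like sub-clusters it ranged from 93.7 to 104 CPM in 3 null-labelled and from 81.3 to 646 CPM in 8 control-labelled ones, which overlap.

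Ifngr1 in erythroid-like cells depended on which cells were counted. The named class had 5 UMIs (0.523 CPM) against 263 UMIs (14.9 CPM), a ratio of 0.0351 (0.0113 to 0.0829), and 250 of the 263 control-labelled UMIs lay in the 416 cells with under 20% hemoglobin. A null-labelled sub-cluster of 31 cells stayed unnamed, with Car1 and Kit among its leading genes, 0.527% hemoglobin UMIs and a median of 40538 UMIs. It held 421 Ifngr1 UMIs (324 CPM) in 25 cells. With these cells added to the class the level was 39.2 CPM against 14.9 CPM and the ratio 2.63 (2.25 to 3.08). The addition was to 1 library only: the 341 unnamed control-labelled cells, with 21.4% hemoglobin UMIs, were not added. With doublets kept the log2 ratio was 1.30. Within the named class, cells with under 20% hemoglobin (60 against 416) had 1 Ifngr1 UMI (1.01 CPM) against 250 UMIs (31.1 CPM). The ratio there was 0.0324 (0.000817 to 0.182), without the unnamed cells. At 20 to 60% and at over 60% hemoglobin Ifngr1 had 1 against 5 and 3 against 8 UMIs, with intervals across 1.

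**Figure D4:**
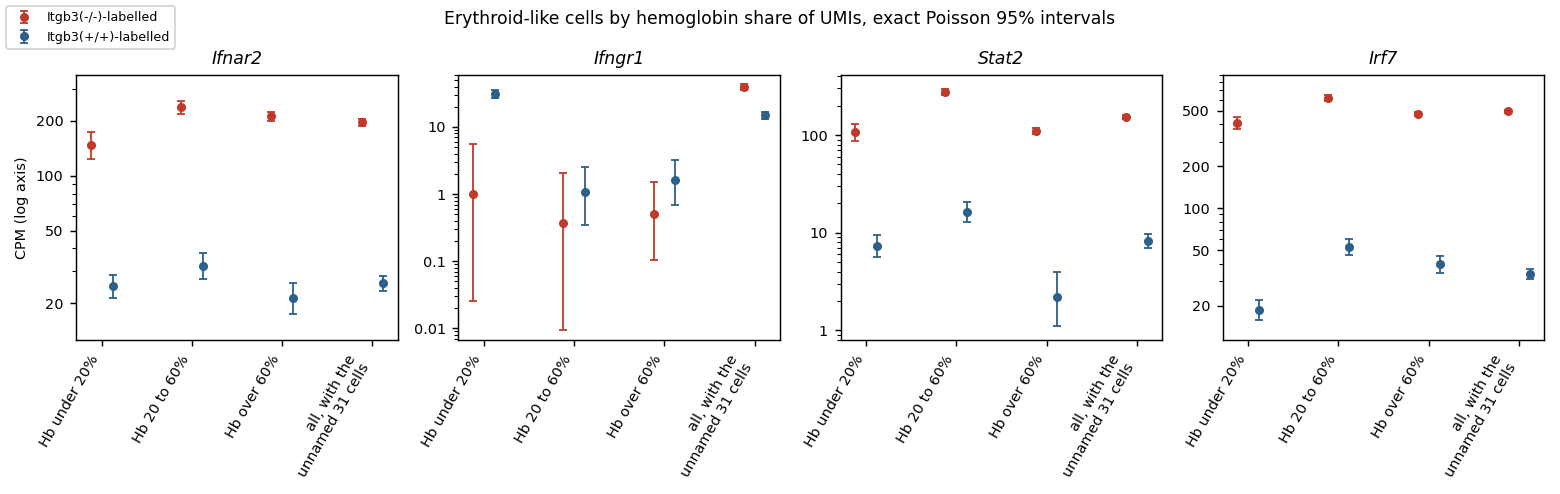
Level in CPM (log axes that differ between panels) of Ifnar2, Ifngr1, Stat2 and Irf7 in erythroid-like cells with under 20%, 20 to 60% and over 60% hemoglobin (Hb) UMIs and in the whole class with the 31 unnamed null-labelled cells added, null-labelled (red) left of control-labelled (blue), with exact Poisson 95% intervals. Ifnar2, Stat2 and Irf7 are higher in red at every hemoglobin level, and Ifngr1 lies above the control-labelled level where the unnamed cells are added.

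Ifngr2, the signalling subunit of the type II receptor, was 2-fold higher in GMP-like cells, with 52.5 CPM (197 UMIs) against 26.2 CPM (156 UMIs) and a ratio of 2.01 (1.62 to 2.49). Its log2 ratio in GMP-like cells, 1.00 from the sums, was -0.089 in the thinned draw, which left 3 against 9 cells with a UMI, and 0.94 in the expectation of thinning. In mature B-like cells it was at 32.7 CPM (86 UMIs) against 55.1 CPM (124 UMIs), a ratio of 0.594 (0.446 to 0.788), and in monocyte-like cells at 109 against 138 CPM, a ratio of 0.789 (0.682 to 0.911). For monocyte-like cells the thinned draw gave a log2 ratio of -1.54, with 4.67% against 14.6% of cells (72% and 70.3% unthinned), and its expectation -0.43, with 10.7% against 14.4% of cells. Erythroid-like cells had 6 against 27 UMIs (ratio 0.410, 0.138 to 1.01). NK-like cells had 0 UMIs in both libraries, and T-like cells 14 UMIs (12.9 CPM) against 9 UMIs (11.6 CPM).

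Between the receptors and the STATs stand the kinases Jak1, Jak2 and Tyk2. Of these 3, Jak2, the kinase that binds the Ifngr2 subunit, was 2-fold or more higher over all cells (59.8 against 26.6 CPM, 2.25-fold, 2.10 to 2.40). The count 2-fold or more lower was 0, and the shares of all genes were 8.49% higher and 18.2% lower. Jak1 and Tyk2 had ratios of 0.778 (0.747 to 0.810) and 0.581 (0.510 to 0.660). Stat3, which carries signals of the interleukin-6 family, was at 115 against 43.3 CPM over all cells (2.66-fold, 2.53 to 2.79). Stat4, Stat5a, Stat5b and Stat6 lay between 0.723-fold and 1.78-fold. Of 2 other receptor genes, Ifnlr1, the specific subunit of the type III receptor, was lower at 2.15 CPM (72 UMIs) against 6.15 CPM (363 UMIs), a ratio of 0.349 (0.267 to 0.451), and Il10rb was at 29.7 against 33.2 CPM.

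Stat2 was higher in the null-labelled cells of 7 of 7 classes. Erythroid-like cells had 157 CPM (1500 UMIs) against 8.28 CPM (146 UMIs), 18.9-fold (16.0 to 22.6), and immature neutrophil-like cells 89.4 against 7.08 CPM, 12.6-fold (10.0 to 16.0). Monocyte-like cells had 218 against 26.4 CPM (8.27-fold, 6.82 to 10.1) and GMP-like cells 49.3 against 6.21 CPM (7.94-fold, 5.55 to 11.6). Ratios in the lymphoid classes were 4.69 (3.64 to 6.08) in B precursor-like cells, 3.32 (2.58 to 4.30) in mature B-like cells with 116 against 35.1 CPM, and 3.57 (1.79 to 7.89) in T-like cells with 50 against 10 UMIs. In NK-like cells no difference was detectable at this depth, with 6 UMIs (15.4 CPM) against 5 UMIs (15.4 CPM), a ratio of 1.00 (0.255 to 4.15), and they had the lowest Stat2 level of 14 null-labelled classes. After thinning, 24.7% of null-labelled against 3.46% of control-labelled monocyte-like cells held a Stat2 UMI (89.3% and 20.1% unthinned, 0 and 4 cells left out).

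Irf9, the DNA-binding partner of Stat2, was 2-fold or more higher in 3 of the 7 classes: immature neutrophil-like (57.2 against 17.8 CPM, 3.22-fold, 2.70 to 3.83), GMP-like (34.4 against 11.4 CPM, 3.01-fold, 2.23 to 4.10) and B precursor-like cells (71.3 against 31.4 CPM, 2.27-fold, 1.80 to 2.86). Erythroid-like cells had 66.2 against 37.1 CPM, 1.79-fold (1.60 to 1.99), which became a log2 ratio of 2.33 under TMM scaling and 1.12 as a mean over cells. The B precursor-like log2 ratio of Irf9, 1.18 from the sums, fell under 2-fold as a mean over cells (0.74) and in the expectation of thinning (0.76). Monocyte-like cells were even at 65.7 CPM (160 UMIs) against 63.5 CPM (318 UMIs), a ratio of 1.03 (0.850 to 1.25), and T-like cells had a ratio of 1.18 (0.730 to 1.94). In the null-labelled library each class's Irf9 interval overlapped that of the next class at each step of the order from plasmacytoid dendritic cell-like (111 CPM) to plasma cell-like cells (14.8 CPM).

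Irf7, which drives type I interferon genes, was higher in 7 of 7 classes, with ratios from 5.33 in T-like to 208 in GMP-like cells. GMP-like cells had 210 CPM (787 UMIs) against 1.01 CPM (6 UMIs), a ratio of 208 (95.3 to 569), and B precursor-like cells 100.3 CPM (208 UMIs) against 1.58 CPM (8 UMIs), a ratio of 63.4 (31.6 to 149). The size of both ratios rests on fewer than 10 control-labelled UMIs. Monocyte-like cells, with the second rank of 14 null-labelled classes, had 997 CPM (2427 UMIs) against 50.4 CPM (252 UMIs), 19.8-fold (17.4 to 22.6). Erythroid-like cells had 507 against 33.5 CPM (15.1-fold, 13.9 to 16.5), immature neutrophil-like cells 194 against 9.47 CPM (20.5-fold, 16.9 to 25), and mature B-like cells 115 against 13.3 CPM (8.62-fold, 5.92 to 13). By hemoglobin, the erythroid-like ratio was 21.8 (18 to 26.5) under 20%, 11.7 (10.2 to 13.5) at 20 to 60% and 11.9 (10.3 to 13.8) over 60%.

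Shares of cells gave the same direction for Irf7. After thinning, 65.3% of null-labelled against 4.92% of control-labelled monocyte-like cells held an Irf7 UMI, and 38.6% against 3.92% of erythroid-like cells (99.3% against 29.3% and 91.4% against 18.2% unthinned, with 0 against 4 and 10 against 20 cells left out). No class that should lack Irf7 was defined. The lowest unthinned shares among the compared classes were 32.0% in null-labelled B precursor-like cells at a median of 4223 UMIs and 0.756% in control-labelled B precursor-like cells at a median of 2318 UMIs. In null-labelled NK-like cells 10 of 40 cells had an Irf7 UMI, against 6 of 76 cells, with 43.6 CPM against 21.5 CPM and a ratio of 2.03 (0.799 to 5.78).

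**Figure D5:**
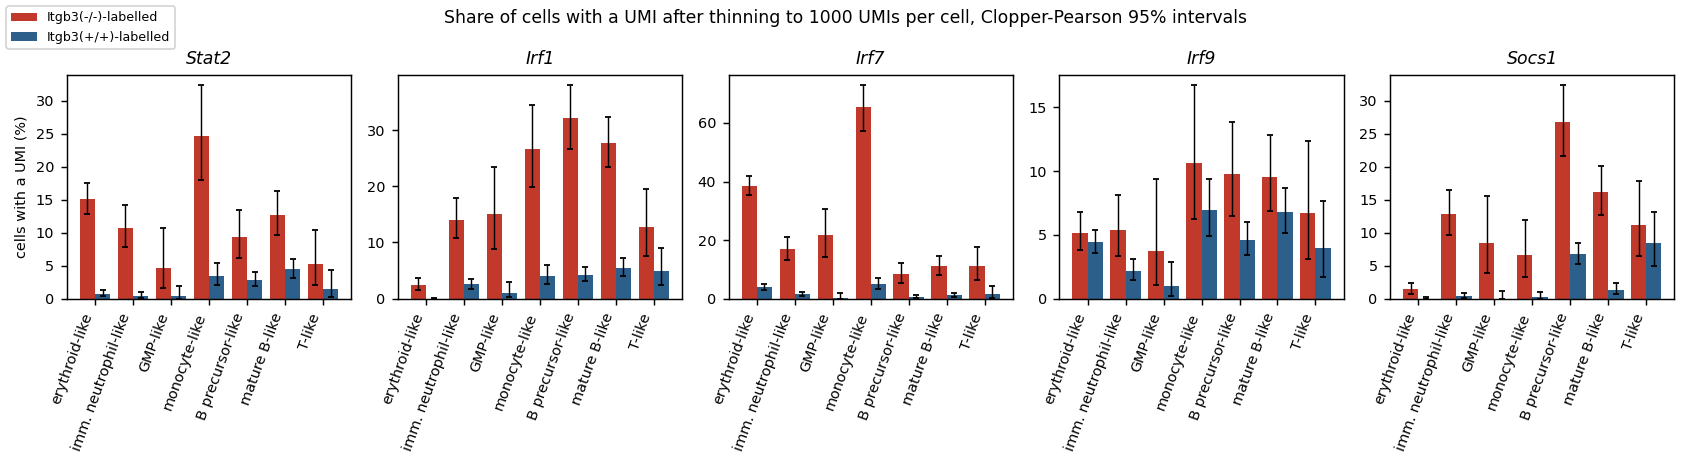
Share of cells (%) with at least 1 UMI of Stat2, Irf1, Irf7, Irf9 or Socs1 after thinning each cell to 1000 UMIs, by class, null-labelled (red) left of control-labelled (blue), with Clopper-Pearson 95% intervals; each panel starts at 0 and has its own scale. Irf7 in monocyte-like cells (65.3% against 4.92%) has the tallest red bar, and for Irf9 the intervals are apart in immature neutrophil-like (5.37% against 2.20%) and B precursor-like cells (9.75% against 4.59%).

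Irf1, an activator of antigen presentation and interferon-response genes, was 2-fold or more higher in 6 of the 7 classes and at 1.97-fold (1.45 to 2.71) in T-like cells. Mature B-like cells had 335 against 44.9 CPM, 7.47-fold (6.08 to 9.27), and B precursor-like cells 305 against 30.9 CPM, 9.87-fold (8.27 to 11.8). In myeloid cells the ratio was 12.2 (9.53 to 15.8) in GMP-like, 11.1 (9.02 to 13.8) in monocyte-like and 8.28 (7.09 to 9.69) in immature neutrophil-like cells. Erythroid-like cells had the lowest level in both libraries, 29.9 CPM (286 UMIs) against 0.454 CPM (8 UMIs), with a ratio of 65.9 (33.0 to 154). In NK-like cells Irf1 was at 84.6 CPM (33 UMIs) against 101.4 CPM (33 UMIs), a ratio of 0.835 (0.499 to 1.4). After thinning, 32.1% of null-labelled against 4.21% of control-labelled B precursor-like cells held an Irf1 UMI (78.4% and 13.4% unthinned, 1 and 12 cells left out).

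Among 6 other interferon regulatory factor genes, 5 passed the minimum of 30 UMIs over all cells. Of these, 0 were 2-fold or more higher and 0 lower, against 8.49% and 18.2% of all genes. The ratios of the 5 genes ran from 0.533 for Irf4 to 1.39 for Irf5, so the 2-fold differences over all cells in this family were those of Irf1 and Irf7. By class, 1 was higher and 0 lower in immature neutrophil-like (8.25% and 16.8% of all genes), GMP-like (10.6% and 11.7%) and B precursor-like cells (7.02% and 13.7%). Monocyte-like cells had 0 and 0 (12% and 21.5%). Erythroid-like cells had 0 higher and 3 lower (4.11% and 70.5% of all genes), mature B-like cells 0 and 2 (10.2% and 16.6%) and T-like cells 0 and 1 (9.58% and 11.2%).

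Socs1, which inhibits Janus kinases, was higher in 7 of 7 classes, from 2.03-fold (1.51 to 2.78) in T-like cells to 51.6-fold (28.4 to 104) in monocyte-like cells. Monocyte-like cells had 113 CPM (276 UMIs) against 2.20 CPM (11 UMIs). GMP-like cells had 77.6 CPM (291 UMIs) against 2.85 CPM (17 UMIs), 27.2-fold (16.7 to 47.3), and immature neutrophil-like cells 112 against 5.68 CPM, 19.8-fold (15.4 to 25.7). Lymphoid cells were highest in the control-labelled library. T-like cells had 157 CPM (171 UMIs) against 77.2 CPM (60 UMIs), and B precursor-like cells 224 CPM (464 UMIs) against 37.2 CPM (188 UMIs), 6.01-fold (5.07 to 7.16). In mature B-like cells the levels were 191 against 12 CPM, 16.0-fold (10.8 to 24.5), and in erythroid-like cells 11.3 CPM (108 UMIs) against 0.284 CPM (5 UMIs), 39.8-fold (16.6 to 125). NK-like cells had 121 CPM (47 UMIs) against 89.1 CPM (29 UMIs), a ratio of 1.35 (0.834 to 2.23). Within T-like cells the ratio was 3.26 (2.21 to 4.80) in cluster 18, and it was 1.4 (0.967 to 2.06) in cells without a Cd8a or Cd8b1 UMI. The log2 ratio of Socs1 over all T-like cells, 1.02 from the sums, was 0.42 in the thinned draw, with 11.2% against 8.46% of cells (60.4% and 24.1% unthinned, 0 and 2 cells left out). It was 1.27 as a mean over cells and 1.26 in the expectation of thinning.

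Of 12 other negative regulators, 3 were 2-fold or more higher over all cells and 0 lower, against 8.49% and 18.2% of all genes. Usp18, which binds Ifnar2 and displaces Jak1, was at 118 CPM (3967 UMIs) against 5.66 CPM (334 UMIs), 20.9-fold (18.7 to 23.5). Socs3, a kinase inhibitor like Socs1, was at 41.7 against 4.74 CPM (8.78-fold, 7.72 to 10.0), and Cish, a target gene of STAT5, at 9.07 against 3.20 CPM (2.83-fold, 2.36 to 3.42). The other 9, which include the PIAS and PTPN genes, lay between 0.598-fold and 1.73-fold. Counted by class, the 12 genes ran from 4 higher and 0 lower in immature neutrophil-like to 1 higher and 4 lower in erythroid-like cells. The shares of all genes there were 8.25% and 16.8%, and 4.11% and 70.5%. B precursor-like cells had 3 higher and 3 lower (7.02% and 13.7% of all genes), and T-like cells 2 and 2 (9.58% and 11.2%).

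The pattern of each gene was set against 12417 others by Pearson correlation of log2(CPM + 10) over 14 points, the 7 classes in each library. The points share 2 libraries and their depth, so that any gene that differs between the libraries correlates, and the values are descriptions. Irf7 was most like Oasl2 (r = 0.95), Ifit1 (0.95) and Usp18 (0.94), all known interferon-response genes, and Stat2 most like Tapbp (0.96), Ogfr (0.96) and Daxx (0.94). Irf1 was most like Cirbp (0.97), Tap1 (0.96) and Nlrc5 (0.96), and Socs1 most like Nlrc5 (0.97), Cirbp (0.93) and Gbp9 (0.91). Tap1, Tapbp and Nlrc5 are known for antigen presentation by MHC class I. Ifnar2 was most like Ifih1 (0.88), Tdrd7 (0.87) and Oas1a (0.86), and Irf9 most like H2-T23 (0.86), Parp14 (0.84) and Sh3glb1 (0.83). The other receptor genes had different neighbours: Ifnar1 had Ambra1 (0.92), Cdc14b (0.92) and Rnf31 (0.91), Ifngr1 had Arhgap31 (0.93), Bivm (0.90) and Rtl8a (0.89), and Ifngr2 had Bri3 (0.96), Borcs6 (0.95) and Sat1 (0.95). Among the 9 genes themselves, Irf1 and Socs1 had r = 0.95 and Stat2 and Irf7 r = 0.89, whereas the receptor pairs had r = 0.02 for Ifnar1 with Ifnar2 and 0.31 for Ifngr1 with Ifngr2.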

How the data were processed

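The deposited matrices hold raw UMI counts, whole numbers for each gene in each barcode. Cell Ranger 3.0, Seurat and mm10 are named per the submitters' processing notes, and version 3.1.0 of the software is named per the file headers. No source used here describes other steps of the authors.

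A barcode was dropped if it had under 200 genes or if mitochondrial UMIs exceeded 10% (1307 of 4281 null-labelled and 3479 of 12764 control-labelled). Scrublet scores removed a further 71 and 690 cells at 0.8% per 1000 cells. Scanpy 1.11.5 (Python 3.11.15) clustered both libraries jointly without integration (2000 variable genes, 30 components, 15 neighbours, Leiden resolution 1, then 0.5 within clusters). Sub-clusters were named from markers of 19 classes; the score thresholds were set after the data were seen, and the names are rebuilt here. UMIs were summed per class and library and divided by the summed total to give CPM. Sums carry exact Poisson intervals, ratios an exact interval from the split of UMIs, and shares Clopper-Pearson intervals, all at 95% and for counting error only. Called means 2-fold or more with at least 30 UMIs over both libraries. For a count of 0 the limit is 3 counts of the total.

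All 9 genes are reported. Other pathway genes are named where they were 2-fold or more over all cells (1 item of these lists is not reported here), and for each of the 9 the 3 genes with the highest correlation are given. Genes outside these rules, and small classes, were named after their values were seen. The genes, lists and markers were chosen with earlier results of these data known. The ratio intervals were tested on simulated Poisson counts only. Such counts hold no variation between cells, animals or libraries, so that test cannot tell how far the intervals fall short of it. The closing section gives the alternatives tried.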

Additional observations from a re-analysis of the deposited data

Results flagged for a closer look

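For 3 receptor genes the difference between the libraries ran in opposite directions in 2 classes, with both intervals off 1. With 1 library per genotype the difference between the classes was not tested. Ifnar1 had a log2 ratio of 1.02 in erythroid-like and -0.87 in mature B-like cells. Ifngr1 had a log2 ratio of 1.85 in T-like and -4.83 in erythroid-like cells. The second turned to 1.39 when 31 unnamed null-labelled cells, and no unnamed control-labelled ones, were added to the class. Ifngr2 had a log2 ratio of 1.00 in GMP-like and -0.75 in mature B-like cells, and the first was -0.089 in the draw that thinned each cell to 1000 UMIs and 0.94 in the expectation of that thinning.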

How the results depend on the processing

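No paired analysis was possible because each genotype had 1 library and the labels give no replicate numbers, and no replicate could be left out. Over all cells, the count of genes 2-fold or more higher was 5 or 6 under the 10 alternatives in filters, scaling, depth and clustering, and the count lower was 0 except for 1 (Ifngr2) in the draw thinned to 1000 UMIs; the expectation of thinning gave 5 and 0 over all cells and 35 and 4 over the classes. Summed over the classes, 36 higher and 4 lower became 15 and 2 under a limit of 5% mitochondrial UMIs, which left 3 classes, and the 4 lower became 2 with doublets kept. The other alternatives gave 24 to 38 higher and 3 to 5 lower, and with no cell filter 6 classes were left. Of log2 ratios 2-fold or more, those reversed were Ifngr1 in erythroid-like cells with doublets kept (1.30) and with the unnamed sub-cluster added (1.39), Ifngr2 in erythroid-like cells under TMM factors (0.21), Ifngr2 in GMP-like cells in the thinned draw (-0.089) and Ifnar1 in erythroid-like cells with under 20% hemoglobin (-0.79). Among ratios within 2-fold, those that changed sign to beyond 2-fold were Ifnar1 (-1.24) and Ifngr2 (-1.11) in immature neutrophil-like cells and Ifngr2 in T-like cells (-1.41), all in the thinned draw, whose expectations were 0.0084, 0.12 and 0.26. The cause of these changes was not tested. The comparisons by hemoglobin level, shared cluster, Cd8 transcripts and the unnamed sub-cluster, and the expectation of thinning, were chosen after seeing the data. Depth limits Irf7, Irf1 and Socs1 in classes with fewer than 10 control-labelled UMIs, where the size of the ratio is uncertain.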

Other observations

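Basophil or mast cell-like cells (27 against 46 cells), a small class chosen after its values were seen, had 52 Socs1 UMIs (259 CPM) in 20 cells against 1 UMI (5.39 CPM), a ratio of 48.0 (8.24 to 1931), and 70 Irf1 UMIs (348 CPM) against 10 UMIs (53.9 CPM). Ifngr1 was at 303 CPM (61 UMIs) against 53.9 CPM (10 UMIs), 5.63-fold (2.86 to 12.3), and 19 of the 61 null-labelled UMIs came from 1 cell. Hematopoietic stem and progenitor-like cells (24 against 51 cells) had 105 Irf7 UMIs (213 CPM) in 19 cells against 7 UMIs (10.9 CPM) in 5 cells, 19.5-fold (9.16 to 49.8). Their Ifngr1 level was 199 CPM (98 UMIs) against 71.8 CPM (46 UMIs), 2.78-fold (1.94 to 4.03), in the opposite direction to GMP-like cells, and 29 of the 98 null-labelled UMIs came from 1 cell. The difference between these classes was not tested.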
